A study of Mus musculus with 2 samples.

Results

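The smooth muscle contractile genes are a list of 10 genes, fixed by name, that encode the contractile machinery of smooth muscle: Myh11, Acta2, Actg2, Tagln, Cnn1, Smtn, Lmod1, Mylk, Tpm1 and Tpm2. All 10 were found among 21938 protein-coding genes of the GENCODE M21 annotation on the mm10 build. Each locus spanned the gene with 10 kb added at both ends, and each annotated transcription start site (TSS) was examined on its own. Chromatin accessibility at these loci was measured by DNase-seq, in which DNase I cuts DNA that is not covered by nucleosomes, in urinary bladder of female adult B6CASTF1/J mice aged 18 to 20 months. These animals carry 1 genome copy from a C57BL/6 parent and 1 from a CAST parent. The study holds 1 group with 2 libraries, biological replicates 1 and 2, taken from separate tissue samples under 1 strain donor record. The labels do not say whether the samples came from different animals, so the spread between the libraries may be technical, and with no second condition no contrast between conditions could be tested.

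Smooth muscle contracts when calcium-bound calmodulin activates myosin light chain kinase, which phosphorylates the regulatory light chain of smooth muscle myosin and lets its heads pull on actin filaments. Tropomyosin, calponin and related proteins lie along those filaments. Many genes of this machinery are controlled by serum response factor (SRF) with its cofactor myocardin, through a DNA element called the CArG box. In the bladder, the detrusor muscle uses this machinery to expel urine, and smooth muscle of the vessel walls uses it as well.

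Replicate 1 had 84591 peaks and replicate 2 had 112174. The value used for a peak is its deposited signal, which was a whole multiple of 1 step per library, 0.00853 in replicate 1 and 0.00884 in replicate 2, and the median peak held 96 and 86 steps. The median peak signal was 0.819 in replicate 1 and 0.76 in replicate 2. A promoter peak lay within 1 kb of a TSS of the gene. Promoter peaks were present in replicates 1 and 2 at 6 and 6 of 6 urothelial markers, 5 and 5 of 5 fibroblast markers, 3 and 3 of 4 endothelial markers, 3 and 4 of 4 pericyte markers and 0 and 1 of 4 immune markers. The endothelial counts and the pericyte count of replicate 1 are near the share of all protein-coding genes given further on. A promoter peak above the library's median was present at 5 of 6 urothelial and 4 of 5 fibroblast markers in each library. It was present at 3 of 4 pericyte markers and 0 of 4 immune markers in each library. Of the 4 endothelial markers, 1 had one in replicate 1 and 2 had one in replicate 2. In bulk tissue a region open in fewer cells and a region open less in each cell cannot be told apart. The part of other cell types in the signal at the contractile genes was not tested.

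The sequences that the results turn on are those around the CArG boxes that lay inside a peak. A CArG box was read as CC, then 6 bases of A or T, then GG, on either strand. Within the 10 loci, 10 boxes lay in a peak of at least 1 library. Each is given 5′ to 3′ on the strand of its gene, with 10 bases on either side and the box in capitals, from the mm10 sequence, which is that of C57BL/6; the CAST copy may differ.
Myh11, chr16:14292311-14292340, minus strand: gcctcgacttCCTTTTATGGcctgagtggt
Acta2, chr19:34254278-34254307, minus strand: gtgtgttttaCCTAATTAGGaaatgctccc
Tagln, chr9:45936028-45936057, minus strand: gtgtctttccCCAAATATGGagcctgtgtg
Tagln, chr9:45920030-45920059, minus strand: agcaacatgcCCTAAAATGGtcaaagaaaa
Smtn, chr11:3535821-3535850, minus strand: tggggcccggCCTTATATGGgaaagctgtg
Lmod1, chr1:135347927-135347956, plus strand: cctggtttctCCAAAAATGGggcttgcaac
Lmod1, chr1:135359189-135359218, plus strand: tgctccttctCCTTTTAAGGcaaggtctga
Mylk, chr16:34923199-34923228, plus strand: ctgctcgcttCCTAATTTGGatgagacttt
Mylk, chr16:34958756-34958785, plus strand: gcagttctgaCCTTTTATGGttgagtttct
Tpm2, chr4:43524369-43524398, minus strand: gggaaacatcCCAAAAAAGGgcagaaaaga
The boxes of Myh11 and Tpm2 and those in the annotated start regions of Acta2 and Tagln lay within 1 kb of a TSS of the gene. The other 6 lay further away, 5 of them in introns of Smtn, Lmod1 and Mylk, and the second box of Tagln, 15529 bp beyond its TSS, lay in a weak peak near the start of the neighbouring gene Pcsk7.

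Promoter accessibility differed widely over the 10 genes. Tpm1, Smtn, Tpm2 and Mylk had strong promoter peaks, Myh11 and Tagln had modest ones, and Acta2, Actg2, Cnn1 and Lmod1 had only peaks below the median signal. A promoter peak was present at 10 of the 10 genes in replicate 1 and at 8 of the 10 in replicate 2, where Actg2 and Lmod1 had none. Among all protein-coding genes, 65.2% had such a peak in replicate 1 and 67.6% in replicate 2. A promoter peak above the library's median peak signal was present at 6 of the 10 genes in each library, the same 6 genes, against 57.8% and 60.1% of all protein-coding genes. The share of contractile genes with a promoter peak above the median was thus close to that of all genes. Among the 6 genes, Mylk is counted through the start of a retained-intron transcript. With starts of protein-coding transcripts alone, its strongest promoter signal in replicate 1 was 0.648, below that library's median of 0.819. Taken over the 10 genes, the median of the strongest promoter signal was 1.19 in replicate 1 and 1.78 in replicate 2, with genes without a peak taken as 0, and over all protein-coding genes taken the same way it was 1.48 and 1.65. Over genes with a promoter peak alone, the median was 1.19 over 10 contractile genes in replicate 1 and 2.77 over 8 in replicate 2, against 3.27 and 3.42 over all such genes. When the strongest 42295 peaks of each library were kept, 6 of the 10 genes had a promoter peak in both, and Acta2, Actg2, Cnn1 and Lmod1 had none. At this cut, 57.9% and 57.1% of all protein-coding genes had a promoter peak in replicates 1 and 2, close to the share of the 10 genes.

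**Figure D1:**
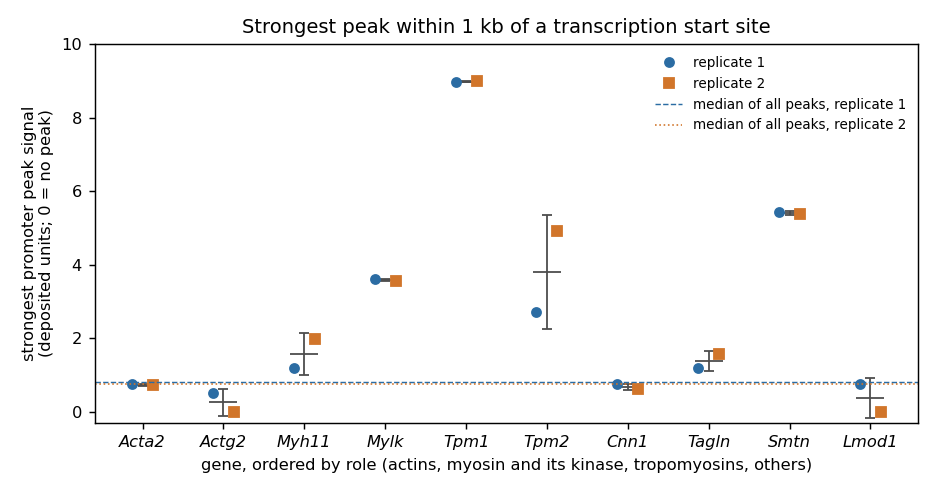
Strongest deposited peak signal within 1 kb of any TSS of each gene (y axis, deposited units, 0 where there was no peak) for the 10 genes (x axis), in replicate 1 (circles) and replicate 2 (squares), with the mean and SD of both (bars, n = 2) and the median of all peaks of each library (horizontal lines). Tpm1 stands highest at 8.96 and 8.996, Smtn follows at 5.43 and 5.36, and Acta2, Actg2, Cnn1 and Lmod1 lie below both medians.

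Acta2 (chr19:34241090-34255590, minus strand) encodes smooth muscle α-actin, a main actin of vascular smooth muscle. Its strongest promoter signal was 0.742 in replicate 1 and 0.716 in replicate 2, with a mean of 0.729 ± 0.0184 (SD, n = 2), which is the 9.43th and the 10.1th percentile of genes with a promoter peak. The 2 values were nearly equal but did not come from the same place. In replicate 1 the peak was chr19:34255287-34255409, in the first, untranslated exon; it did not cover the GENCODE start at 34255590, but it did cover the curated RefSeq start at 34255373. In replicate 2 the peak was chr19:34254261-34254359, in the first intron, 80 bp upstream of a second annotated start at 34254230 and around the box CCTAATTAGG shown above. Neither place had a peak in the other library, though replicate 1 had a stretch of significant cut rate at the intronic place, with a lowest false discovery rate of 0.029, and neither peak held a footprint, a short stretch inside open chromatin that is protected from cutting.

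Actg2 (chr6:83512905-83536265, minus strand) encodes smooth muscle γ-actin, the main actin of visceral smooth muscle such as that of the bladder. It had a promoter peak only in replicate 1, with a signal of 0.52, or 61 steps, centred 364 bp upstream of the TSS at 83536265. The 2 CArG boxes of its promoter, at 27 and 64 bp upstream of that TSS, lay outside this peak. The 150 bases upstream of the TSS, with both boxes in capitals, are shown because 2 boxes stand next to the start with no peak over them.
Actg2, chr6:83536266-83536415, minus strand: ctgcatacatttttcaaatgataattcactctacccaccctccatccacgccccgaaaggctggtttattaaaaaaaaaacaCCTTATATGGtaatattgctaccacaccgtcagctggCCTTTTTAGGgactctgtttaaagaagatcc
The 2 further groups of annotated starts within Actg2 had no peak in either library. The signal of 7.15 and 6.49 within its locus belonged to the promoter of the next gene, Dguok.

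Myh11 (chr16:14194535-14291372, minus strand) encodes the heavy chain of smooth muscle myosin, regarded as a specific marker of smooth muscle. A peak covered its starts in both libraries, with a signal of 1.18 in replicate 1 and 1.97 in replicate 2 (mean 1.57 ± 0.561, SD, n = 2), from 138 and 223 steps. This is the 18.3th and the 30.6th percentile of genes with a promoter peak. Each library had 6 peaks in the locus, and all 6 were in both libraries. The box CCTTTTATGG lay 954 bp upstream of the start at 14291372, in a separate peak of 0.486 in replicate 2; the peak of replicate 1 in the same region, 0.495, lay 70 bp from the box.

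Mylk (chr16:34745210-35002420, plus strand) encodes myosin light chain kinase, and its starts give a long kinase, a shorter kinase and, from the 3′ end of the gene, telokin, a small protein of the kinase's tail that regulates myosin phosphatase in visceral smooth muscle. Its 8 annotated starts differed. The start at 34745210, annotated to a retained-intron transcript and next to a predicted RefSeq start at 34745199, had 3.61 in replicate 1 and 3.56 in replicate 2 (mean 3.58 ± 0.0324, SD, n = 2). The start of the annotated protein-coding transcript at 34784921 had no peak in either library. With starts of protein-coding transcripts alone, the strongest promoter signal of Mylk was 0.77 ± 0.173 (SD, n = 2). Further into the gene the signals were low. The start at 34930342 had 0.836 in replicate 1 and no peak in replicate 2. The starts at 34994179 and 34994807, at the 3′ end of the gene where the telokin transcript begins, shared a best signal of 0.648 in replicate 1 and 0.893 in replicate 2, from different peaks: at the place of the replicate 2 peak, replicate 1 had 0.64. A CArG box that spans the start at 34994807, centred 3 bp upstream of it, lay in no peak. The 150 bases upstream of the strong start are shown with the footprint called in both libraries in capitals.
Mylk, chr16:34745060-34745209, plus strand: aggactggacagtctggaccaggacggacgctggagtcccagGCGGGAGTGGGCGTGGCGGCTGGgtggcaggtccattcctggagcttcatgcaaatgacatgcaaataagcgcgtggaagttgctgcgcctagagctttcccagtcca

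Tpm1 (chr9:67022590-67049406, minus strand) encodes α-tropomyosin and is transcribed from 2 promoters, of which the upstream one gives the long, muscle-type proteins among others and the internal one gives short, cytoskeletal proteins. The internal group, 7 starts between 67043709 and 67043962, had a signal of 8.96 in replicate 1 and 8.996 in replicate 2 (mean 8.98 ± 0.0239, SD, n = 2), from 1051 and 1018 steps, the 94.3th and 94.9th percentile of genes with a promoter peak. The upstream group, 13 starts between 67049118 and 67049406, had 2.30 in replicate 1 and 2.18 in replicate 2. The high promoter signal of Tpm1 thus stood at the internal group in both libraries, while the group that includes the long isoforms had a lower value in each. The 150 bases upstream of the internal group are shown with the footprints of both libraries in capitals.
Tpm1, chr9:67043963-67044112, minus strand: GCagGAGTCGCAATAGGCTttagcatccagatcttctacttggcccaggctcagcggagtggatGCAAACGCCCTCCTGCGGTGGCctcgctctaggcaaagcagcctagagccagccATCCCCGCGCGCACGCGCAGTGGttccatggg

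Tpm2 (chr4:43514711-43523765, minus strand) encodes β-tropomyosin. Its strongest signal was 2.70 in replicate 1 and 4.904 in replicate 2 (mean 3.804 ± 1.56, SD, n = 2), at an intronic peak, chr4:43520021-43520240, 462 bp upstream of the start of a processed transcript at 43519669. The peak over its main group of 5 starts had 2.21 in replicate 1 and 1.77 in replicate 2. Another peak, chr4:43524261-43524520, centred 626 bp upstream, held the box CCAAAAAAGG and had 2.19 in replicate 1 and 1.59 in replicate 2. The intronic peak was the higher in replicate 2, and the other 2 were the higher in replicate 1. With starts of protein-coding transcripts alone, the strongest promoter signal of Tpm2 was 1.99 ± 0.312 (SD, n = 2).

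Cnn1 (chr9:22099216-22109630, plus strand) encodes calponin, an actin-binding protein that restrains the myosin ATPase. Its start was covered by a peak of 0.742 in replicate 1 and 0.619 in replicate 2 (mean 0.68 ± 0.0872, SD, n = 2). Its box CCTTATAAGG, in an intron 61 bp upstream of an internal start at 22100192, lay outside any peak. Tagln (chr9:45929619-45936058, minus strand) encodes transgelin, also called SM22, an actin-binding protein whose promoter is widely used to direct transgenes to smooth muscle. Its strongest promoter peak, 1.19 in replicate 1 and 1.58 in replicate 2 (mean 1.39 ± 0.274, SD, n = 2), was centred 1063 bp upstream of the start. The peak over the start itself was called only in replicate 1, at 0.878, and held the box CCAAATATGG 15 bp into the transcript; with a window of 500 bp the strongest promoter signal of Tagln was 0.439 ± 0.621 (SD, n = 2). Another box, CCATAAAAGG, 108 bp upstream of the start, lay outside any peak and is in capitals in the 150 bases upstream.
Tagln, chr9:45936059-45936208, minus strand: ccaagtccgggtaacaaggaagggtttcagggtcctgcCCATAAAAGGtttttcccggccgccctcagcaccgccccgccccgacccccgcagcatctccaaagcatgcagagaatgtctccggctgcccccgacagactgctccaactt

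Smtn (chr11:3517523-3540612, minus strand) encodes smoothelin, a filament-associated protein of contractile smooth muscle cells. It had 5.43 in replicate 1 and 5.36 in replicate 2 (mean 5.40 ± 0.048, SD, n = 2), the 73.5th and 71.7th percentile of genes with a promoter peak, over a group of 5 starts from 3539239 to 3539292. The annotated start furthest upstream, at 3540612, had no peak within 1 kb in either library. Stretches of significant cut rate did lie within 1 kb of it, with a lowest false discovery rate of 9.03e-08 in replicate 1 and 1.42e-10 in replicate 2. The 3 internal groups had neither a peak nor such a stretch within 1 kb in either library. Lmod1 (chr1:135324807-135368065, plus strand) encodes leiomodin, which nucleates actin filaments. It had a peak of 0.759 over its only start in replicate 1 and none in replicate 2.

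In order of strongest promoter signal, Tpm1 stood above the rest by more than the spread of the 2 libraries. Smtn followed, and its gap to the higher value of Tpm2 was smaller than the spread of Tpm2. Tpm2 and Mylk came next, with overlapping ranges, but with starts of protein-coding transcripts alone Tpm2 had a mean of 1.99 and Mylk one of 0.77, near Acta2 at 0.729. Myh11 and Tagln came after them, also with overlapping ranges, above Acta2, Cnn1, Lmod1 and Actg2, whose ranges overlapped between neighbours.

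The 30 groups of annotated starts of the 10 genes, formed from starts no more than 500 bp apart, differed in CpG content. The CpG observed-over-expected ratio was taken within 250 bp either side, and its threshold of 0.5 was chosen after the values were seen. Of 6 groups at or above 0.5, 5 had a start covered by a peak in both libraries: those of Mylk, Smtn and Tpm2 and both of Tpm1. Of 24 groups under 0.5, 3 had a start covered in both, those of Myh11 at 0.434, Cnn1 at 0.274 and the telokin end of Mylk at 0.178. Among all protein-coding genes, 63.8% of groups at or above 0.5 and 5.56% of groups under 0.5 were covered in both libraries. The main starts of Acta2 at 0.277, Actg2 at 0.293, Lmod1 at 0.309 and Tagln at 0.483 were all in the lower class and covered in 1 library or in none.

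**Figure D2:**
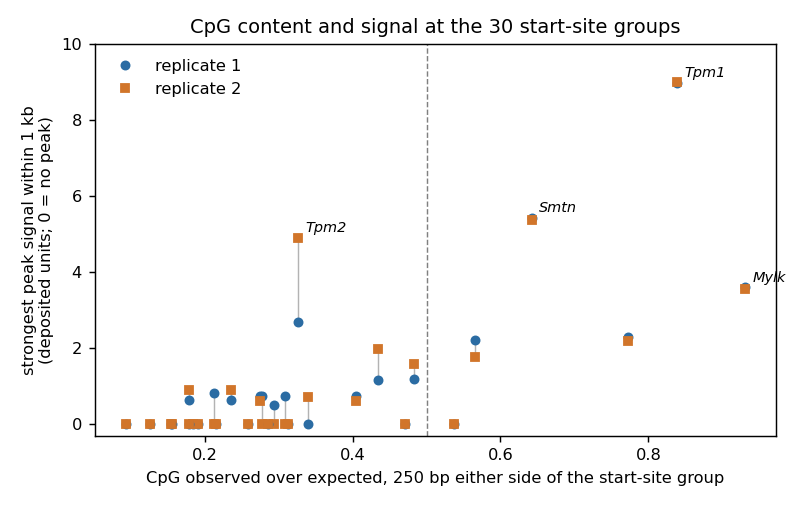
Strongest deposited peak signal within 1 kb (y axis, deposited units, 0 where there was no peak) against the CpG observed-over-expected ratio (x axis) for the 30 groups of starts, in replicate 1 (circles) and replicate 2 (squares), with grey lines joining the 2 libraries and a dashed line at 0.5. The groups with a signal above 5 in both libraries, Tpm1 at 8.96 and 8.996 and Smtn at 5.43 and 5.36, lie right of the line, while the intronic peak of Tpm2 is the one strong value left of it; some groups of Cnn1 and Mylk share a peak.

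CArG boxes were common around these genes, and most lay outside peaks. Within 1 kb of a TSS, 8 of the 10 genes had a box, all but Lmod1 and Tpm1, against 19.6% of all protein-coding genes. By group of starts, 14 of 30 had a box, against 9.79% of the groups of all protein-coding genes. Of 14 boxes next to starts, 4 lay in a peak of either library, those of Myh11, Acta2, Tagln and Tpm2. A match is a description of the letters and does not show that SRF is bound.

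Of the peaks in the 10 loci, 5 of 60 (8.33%) held a box in replicate 1 and 8 of 71 (11.3%) in replicate 2, against 0.897% and 0.938% of all peaks. These counts are small, and no test was made of them. With the shorter deposited list, 1 of 32 peaks in replicate 1 and 2 of 46 in replicate 2 held a box. Most of the boxes thus lay outside the peaks of the shorter list. That list did not follow signal alone. In replicate 2 it had a peak at a region of Lmod1 with 0.592 and none at a region of Acta2 with 0.831. By signal, 4 of the 5 peaks of replicate 1 with a box were above that library's median. In replicate 2 only those of Smtn, at 1.79, and Tpm2, at 1.59, were above its median of 0.76, and the others were below it. Only 3 boxes lay in peaks of both libraries. The box of Tpm2 had 2.19 and 1.59, that of Mylk at 34958766 had 0.989 and 0.663, and the second box of Lmod1 had 0.904 and 0.689, in replicates 1 and 2. A footprint overlapped 2 of the boxes, those of Tpm2 and of Mylk at 34958766, both in replicate 2 alone. Over all peaks, 18.7% of boxes in replicate 1 and 20.3% in replicate 2 overlapped a footprint. The Mylk box also lies at the start of an annotated antisense transcript, E130310I04Rik. No peak of the 10 loci held a match to the MEF2 consensus, another motif of muscle genes, which was present in 0.517% to 1.25% of all peaks by class and library.

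**Figure D3:**
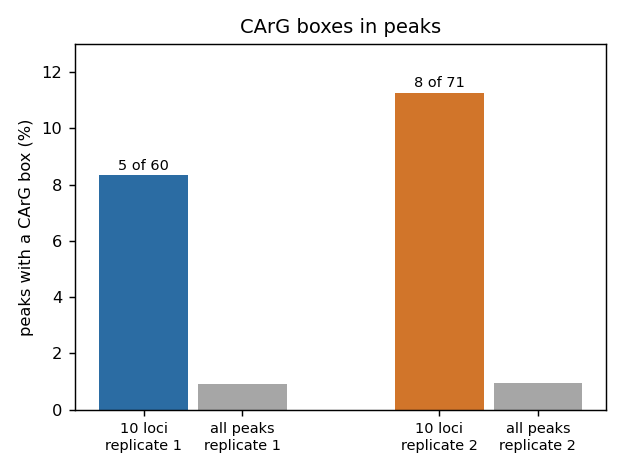
Share of peaks with a CArG box (y axis, %) in the 10 loci (coloured bars, with the counts above) and among all peaks (grey bars), in replicate 1 on the left and replicate 2 on the right. The shares in the 10 loci, 8.33% and 11.3%, rest on 5 and 8 peaks, against 0.897% and 0.938% of all peaks.

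Away from promoters, the loci of the contractile genes held 55 regions more than 1 kb from any protein-coding TSS, 40 of them in introns, and 29 of the 55 had a peak in both libraries. The median density of such peaks was 0.451 per 10 kb of locus in replicate 1 and 0.555 in replicate 2. Over all protein-coding genes the median was 0.197 and 0.328, and the 75th percentile 0.458 and 0.648. Density differed widely among the 10 genes. Tpm1 had 0.854 and 1.495 and Smtn 0.928 and 1.39 per 10 kb in replicates 1 and 2, at or above the 90.8th percentile of all genes in each library, while Tagln had no such peak in either.

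Of the genes with weak promoters, Lmod1, Acta2 and Actg2 differed in what lay beyond the start. Lmod1 had 2.53 in replicate 1 and 3.69 in replicate 2 at chr1:135368301-135368500, just beyond its 3′ end. Acta2 had 0.776 and 1.89 at chr19:34244141-34244360, in an intron. In replicate 1 a region of Acta2 beyond its 3′ end, chr19:34234021-34234200, was stronger, with 1.02 there and 0.9985 in replicate 2. Actg2 had 2.44 in replicate 2 alone at chr6:83512601-83512780, just beyond its 3′ end, the strongest region of the 10 loci called in 1 library only. Repeat-masked sequence made up 56.1% of this region. Replicate 1 had no peak there but a stretch of significant cut rate, with a lowest false discovery rate of 0.0432.

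Among the genes with stronger promoters, Smtn had 5.62 in replicate 1 and 5.92 in replicate 2 at chr11:3535421-3535600, which lies in an intron of Smtn and in an exon of the noncoding gene Gm11946 on the other strand. This value was above that of its promoter in both libraries. The strongest such regions of the others were lower. Mylk had 1.57 and 2.17 at chr16:34996261-34996440 near the telokin end, although an intronic region at chr16:34967541-34967760 had 1.81 in replicate 1. Myh11 had 1.23 and 2.33 in an intron at chr16:14237401-14237600, and Tpm2 had 0.853 and 1.70 at chr4:43530701-43530900, upstream. Tpm1 had 1.19 and 1.39 at chr9:67045041-67045240 between its promoters, although an intronic region at chr9:67025041-67025260 had 1.27 in replicate 1.

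**Figure D4:**
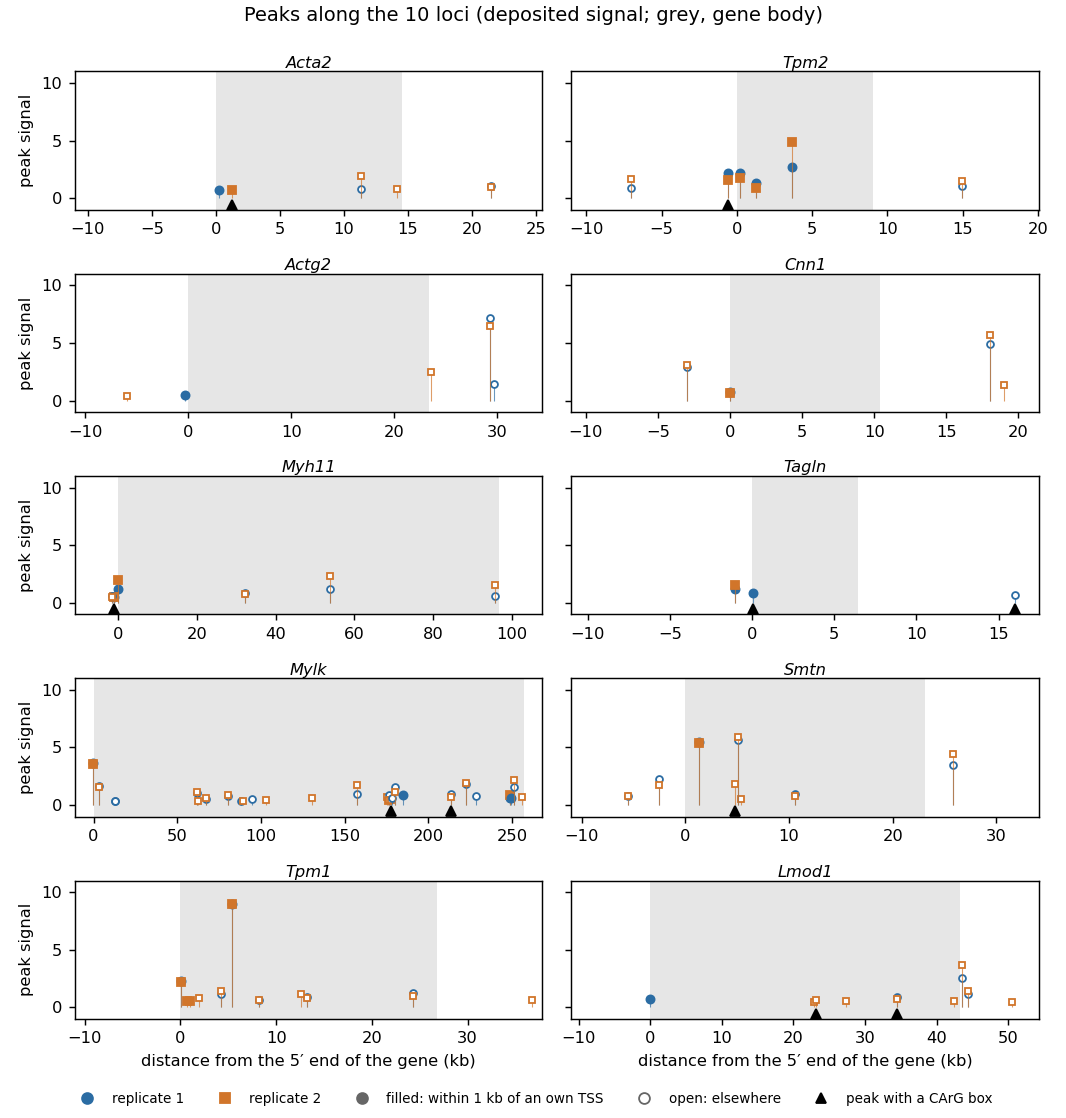
Deposited peak signal (y axis, deposited units) against distance from the 5′ end of the gene (x axis, kb, positive into the gene) along the 10 loci, with the gene body in grey, replicate 1 as circles and replicate 2 as squares, filled within 1 kb of a TSS of the gene and open elsewhere, and triangles under regions with a CArG box. The strongest peaks of the Actg2 and Cnn1 loci, 7.15 and 6.49 at Actg2 and 4.903 and 5.70 at Cnn1, lie downstream at promoters of neighbouring genes, and the internal promoter of Tpm1 is the strongest of all at 8.96 and 8.996.

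Other short motifs were read in the same peaks. A consensus string of CTCF, on either strand, was present in 8 of 36 peaks away from starts in replicate 1 and 11 of 49 in replicate 2, or 22.2% and 22.4%, against 15.2% and 15.7% of all peaks away from starts. Of the matches in the 10 loci, 9 of 11 in replicate 1 and 12 of 15 in replicate 2 overlapped a footprint, against 61.8% and 69% over all peaks. CTCF is a factor that holds chromatin loops in place. By the mean of both libraries, the strongest region away from starts held this string at Myh11, Acta2, Lmod1 and Tpm2, and not at Smtn, Mylk or Tpm1. How often the strongest such region of other genes holds it was not counted. In replicate 1 alone, the strongest such region of Acta2 was another, chr19:34234021-34234200, which held none of the motifs read. The 4 regions with the string are shown on the strand of the gene, with the bases under a footprint in both libraries in capitals. In each, the string overlapped a footprint in both libraries.
Myh11, chr16:14237401-14237600, minus strand: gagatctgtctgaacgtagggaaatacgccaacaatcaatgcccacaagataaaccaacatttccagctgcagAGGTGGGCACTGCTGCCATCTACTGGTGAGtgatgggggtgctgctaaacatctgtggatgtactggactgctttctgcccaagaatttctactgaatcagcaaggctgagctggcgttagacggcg
Acta2, chr19:34244141-34244360, minus strand: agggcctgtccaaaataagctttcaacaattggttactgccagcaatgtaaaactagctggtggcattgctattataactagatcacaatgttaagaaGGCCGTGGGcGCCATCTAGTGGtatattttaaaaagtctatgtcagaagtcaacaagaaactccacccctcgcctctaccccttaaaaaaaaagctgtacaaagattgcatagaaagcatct
Lmod1, chr1:135368301-135368500, plus strand: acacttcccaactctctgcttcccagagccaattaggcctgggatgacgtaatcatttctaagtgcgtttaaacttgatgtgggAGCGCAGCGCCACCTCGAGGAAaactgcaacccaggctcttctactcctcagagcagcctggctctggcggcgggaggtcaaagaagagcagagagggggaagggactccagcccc
Tpm2, chr4:43530701-43530900, minus strand: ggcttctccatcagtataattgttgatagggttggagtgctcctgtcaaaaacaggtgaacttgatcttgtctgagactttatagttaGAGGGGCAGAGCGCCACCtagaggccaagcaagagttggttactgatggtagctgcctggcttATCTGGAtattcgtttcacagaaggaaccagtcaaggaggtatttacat
The strongest such region of Smtn held no exact match to any of the 9 motifs read. Bases under its longest footprint in both libraries differ from the CTCF string by 1 base, on the other strand. How often such a near match occurs in other peaks was not counted, so it only describes the letters.
Smtn, chr11:3535421-3535600, minus strand: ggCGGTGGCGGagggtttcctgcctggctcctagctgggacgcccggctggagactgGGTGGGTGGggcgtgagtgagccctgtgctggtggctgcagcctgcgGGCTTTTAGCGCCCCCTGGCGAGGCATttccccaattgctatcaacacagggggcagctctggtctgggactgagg
The AP-1 string TGANTCA was present in 16.7% and 16.3% of peaks away from starts in the 10 loci, against 17.6% and 16.1% of all such peaks. The E box CAGCTG was present in 27.8% and 26.5%, against 17.7% and 16.2%. At promoter peaks the SP/KLF string GGGCGG was present in 44.4% and 50% in the 10 loci, against 50.7% and 45.8% of all promoter peaks. In replicates 1 and 2, TEAD (GGAATG) was present in 22.2% and 12.5% of promoter peaks in the 10 loci, against 8.89% and 9.37% of all, which is 4 of 18 and 2 of 16 peaks, and in 11.1% and 16.3% of peaks away from starts, against 12.1% and 12%. RBPJ (TGGGAA) was present in 22.2% and 31.2% of promoter peaks, against 17.5% and 18.2%, and in 16.7% and 16.3% away from starts, against 17.9% and 18.3%. The NFI string TTGGCA was present in 16.7% and 18.8% of promoter peaks, against 9.72% and 10.5%, and in 16.7% and 6.12% away from starts, against 15.9% and 17.4%. Footprints covered the peaks of the 10 loci at 10.9 and 11.2 per kb in replicates 1 and 2, against 9.80 and 9.66 over all peaks.

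Between the libraries, the peaks of the 10 loci overlapped to form 85 regions, of which 46 had a peak in both, 14 in replicate 1 only and 25 in replicate 2 only. Of the peaks of replicate 1, 76.7% overlapped one of replicate 2, against 84.7% of all its peaks, and of the peaks of replicate 2, 64.8% overlapped one of replicate 1, against 64.1% of all. Regions called in 1 library only were mostly weak. Their signals ran between 0.341 and 1.44 in replicate 1, with 3 of 14 above that library's median, and between 0.336 and 2.44 in replicate 2, with 6 of 25 above it.

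The log2 ratio of replicate 1 over replicate 2 of the summed locus signal was centred on the median of all loci, which was -0.283. Over the 10 genes its median was 0.01, with 5 genes on either side of 0. The SD was 0.454 over all loci and 0.496 over single paired peaks. Tagln, at 1.09, and Acta2, at -0.52, were beyond both; Tagln has 3 peaks in replicate 1 and 1 in replicate 2, and its value is the presence or absence of the weaker ones. No p-value was computed, since each side is 1 library.

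Among the 46 regions with a peak in both libraries, the ratio was lower with the CTCF string than without it. The 12 regions with the string had a median centred log2 ratio of -0.30, and 9 of them were lower in replicate 1. The 34 regions without it had a median of 0.17, and 10 were lower in replicate 1. Over all paired peaks of the genome, the median was -0.38 for 12578 with the string and 0.05 for 57849 without it. Of these, 9100 with the string and 26112 without it were lower in replicate 1. The lower ratio with the string was thus present over the genome and was not particular to the 10 loci. Centring moves these values by the genome's own median. Uncentred, the medians were -0.45 with the string and 0.03 without it in the 10 loci, and -0.53 and -0.09 over the genome. The lowest ratios in the 10 loci were those of the CTCF-string regions of Myh11 at chr16:14195501-14195680, at -1.22, and of Acta2 at chr19:34244141-34244360, at -1.14.

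**Figure D5:**
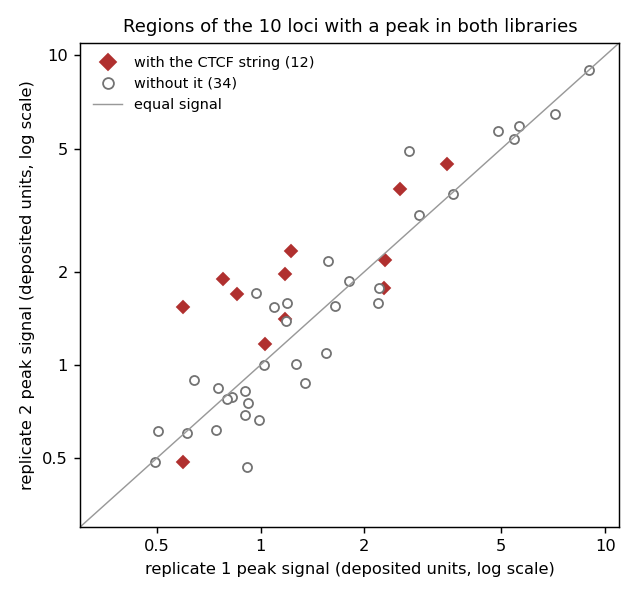
Deposited signal in replicate 2 (y axis, deposited units, log scale) against replicate 1 (x axis, same units, log scale) for the 46 regions of the 10 loci with a peak in both libraries, with (diamonds) and without (circles) the CTCF string, and a line at equal signal. The strongest regions lie near the line, and 9 of the 12 diamonds were lower in replicate 1 after centring. Over the genome, 9100 of 12578 paired peaks with the string were.

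Other genes of the same families were set beside the contractile genes, of which 10 in replicate 1 and 8 in replicate 2 had a promoter peak. Of all protein-coding genes, 65.2% and 67.6% had one in replicates 1 and 2, and 57.8% and 60.1% had one above the library's median. Of 11 isoforms of skeletal and heart muscle, 2 in replicate 1 and 3 in replicate 2 had a promoter peak, none above the library's median, and Actc1, Myh6, Myh1, Myh2, Myh4, Mylk2, Lmod2 and Lmod3 had none in either. Of 11 isoforms used by many cell types, all 11 had one in both libraries, with a median signal of 4.19 and 3.49, and the highest were Myh9 at 9.74 ± 1.89, Actb at 9.67 ± 0.0169 and Myh10 at 8.77 ± 0.166 (SD, n = 2 each). Of 15 regulators and partners of contraction, all 15 had a promoter peak in both libraries and 13 had one above the median, led by Calm3 at 9.18 ± 0.971, Rhoa at 8.85 ± 0.685 and Calm2 at 8.08 ± 0.419 (SD, n = 2 each). The 2 with no peak above the median in either library, Myl9, a regulatory light chain of myosin, at 0.65 ± 0.045, and Prkg1, cGMP-dependent protein kinase, at 0.682 ± 0.0602 (SD, n = 2 each), were named after their values were seen. No test was made between these lists.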

How the data were processed

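DNase-seq of urinary bladder gave 2 libraries, each with 2 peak lists of different length, footprint calls and the stretches where the cut rate was significant, on the mm10 build per the file listing. Within a tolerance of 0.02, 100% of the deposited signal values were whole multiples of the library's step. What the step stands for is not stated, and the total depth is unknown. The aligner and caller are not given in the sources used. Every footprint in the deposited lists carries the same p-value-scale entry of 0.01, and the stretches carry a false discovery rate, deposited by the authors on the p-value scale, up to 0.05; footprints could not be ranked. No list was pooled over libraries.

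Sequence was read from GRCm38.p6 (mm10) and annotation from GENCODE M21 and RefSeq, with Python 3.11.15. All annotated TSSs of 21938 protein-coding genes were used. The longer list was the main one. Peaks were shared when they overlapped by 1 bp or more. Counting was tested on simulated data. Values are per library, with mean and SD over n = 2; with 1 group no test was made. The genes, the lists set beside them, the motifs and the rules were chosen with earlier results of these data known. All 10 genes were named, with their promoter peaks, the strongest region of each away from TSSs and the boxes in footprints; 1 such region is not reported here. In the other lists the 3 highest genes by mean promoter signal and those with no promoter peak were named; Myl9 and Prkg1 were named after their values were seen. Alternatives covered window, locus width, peak list, TSS class, overlap, motif and footprint length. The splits by CpG and by the CTCF string and the TSS class for single genes were added after seeing the data.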

Additional observations from a re-analysis of the deposited data

How the results depend on the processing

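Values of single libraries and of alternatives were compared with the means over both libraries. A count was taken as unchanged within 1.5 times, and a mean within 1 SD of the libraries or, for the ratio between them, within the SD of paired peaks. With n = 2 a single library always lies within 1 SD of the mean, so leaving out a library gives a range and says nothing of stability. The mean number of genes with a promoter peak (9), their median promoter signal (1.48) and the centred ratio between libraries (0.01) stayed within these limits under the other alternatives run for them. With the shorter list the mean number was 7, against 60.3% and 62.9% of all protein-coding genes in replicates 1 and 2. With the strongest peaks it was 6, exactly on the limit of 1.5 times, against 57.9% and 57.1%. Leaving out either library gave 8 to 10 genes, a promoter signal of 1.19 to 1.78, a density of 0.451 to 0.555, 64.8% to 76.7% shared, 8.33% to 11.3% with a CArG box and 10.9 to 11.2 footprints per kb.

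The density of peaks away from starts, 0.503 per 10 kb, was 0.388 over the gene body alone, 0.311 with the shorter list, 0.316 with the strongest peaks and 1.07 with promoter peaks kept. The share of peaks in both libraries, 70.7%, was 58.4% at 50% reciprocal overlap. The share with a CArG box, 9.8%, was 17.5% with 1 mismatch allowed, when 5.93% and 6.23% of all peaks held one, and 3.74% with the shorter list, when 0.882% and 0.877% did. Footprints per kb, 11.1, were 14.2 with the shorter list and 4.27 for footprints of at least 12 bp. Of 30 values for single genes, those that leave out a library not counted, 4 moved: Tagln with 500 bp, Smtn with 2 kb (5.77 against 5.40) and Mylk and Tpm2 with protein-coding starts. The causes were not tested beyond what each alternative itself removes or adds. No paired analysis was possible because there is 1 group.

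With 2 libraries, peaks near the calling threshold limit what can be read: a missing peak at Actg2 or Lmod1 in replicate 2 is a value below detection and does not show closed chromatin. Reads of the CAST copy mapped on a C57BL/6 sequence, and the depth of either library, were not examined.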

Other observations

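A few further values belong to no comparison above. The region of Smtn that held a CArG box, chr11:3535701-3535980, had a signal of 1.79 in replicate 2 and no peak in replicate 1, although a stretch of significant cut rate was listed there in both, with a lowest false discovery rate of 9.57e-13 in replicate 1 and 1.48e-11 in replicate 2. Among the other regions with a CArG box called in replicate 2 alone, that of Acta2 also had such a stretch in replicate 1, and those of Lmod1 and Mylk had none. In Mylk, a curated RefSeq start at 34784950, like the GENCODE start beside it, lay in no peak, while a predicted RefSeq start at 34807245 lay in a peak of both libraries, with 1.03 in replicate 1 and 1.17 in replicate 2. Of the regions called in replicate 1 only, 3 of 14 held a stretch of significant cut rate in replicate 2, and of those called in replicate 2 only, 4 of 25 held one in replicate 1.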
